A study of Caenorhabditis elegans with 2 samples.

Results

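The genes of the proteasome and of the ubiquitin precursors were examined in a chromatin immunoprecipitation experiment with sequencing (ChIP-seq) in the nematode Caenorhabditis elegans. They were chosen by symbol among the protein-coding genes of the Ensembl WBcel235 annotation, as every gene named pas, pbs, rpn or rpt with a number, plus ubl-1, ubq-1 and ubq-2. This gave 36 genes of 19985: 14 of the core particle, 19 of the regulatory particle and 3 ubiquitin precursors. The immunoprecipitated protein was ZK546.5, tagged at its C-terminus with GFP and FLAG, in strain OP231. That strain carries the unc-119(ed3) mutation and the integrated transgene wgIs231, and whole L4 larvae of mixed sex were used. The labels give 1 group of 2 biological replicates and no second condition, so values are compared between genes and between replicates, and never between treatments. The L4 stage is the last larval stage before the adult, and a whole-animal sample mixes all its tissues.

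The proteasome is the large protease that degrades proteins tagged with ubiquitin. Its core particle is a barrel of stacked rings, with outer alpha rings (pas genes), which form the gate, and inner beta rings (pbs genes), some of whose subunits cut the substrate. The regulatory particle caps the barrel: a ring of ATPases (rpt genes) unfolds the substrate and threads it in, and the other subunits (rpn genes) recognise ubiquitin, remove it or hold the particle together. Ubiquitin itself is made as precursors. In C. elegans ubq-1 encodes a chain of ubiquitin units, ubq-2 encodes ubiquitin joined to a ribosomal protein of the large subunit, and ubl-1 encodes a ubiquitin-like protein joined to a ribosomal protein of the small subunit. In this animal the transcription factor isoform SKN-1A raises proteasome subunit expression when proteasome function is impaired.

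The values are the authors' signal values of listed regions on ce11, the same assembly as WBcel235. The list from both replicates pooled and each replicate list held 30000 regions, which include background, with median signal values of 12.7, 8.98 and 6.39 for the pooled list, replicate 1 and replicate 2. Its scale is unknown, so between lists a region is compared by its rank, with rank 1 the strongest. The set that passed the authors' IDR step (irreproducible discovery rate, which keeps regions ranked high in both replicates) held 92 regions. These 92 regions were the 92 strongest of the pooled list, down to a signal of 36.1. Of them 19 lie on mitochondrial DNA and 73 on the nuclear chromosomes, and ranks count both kinds. The lists carry no read counts, so the depth behind each value is unknown.

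The strongest regions at these genes lay upstream of ubl-1, pbs-1 and ubq-2, and their sequences are shown because they hold short words that were frequent at the strongest regions of the experiment. The next strongest, upstream of pbs-2, held none of the 4 words marked below and is not shown. The region upstream of rpn-9, the strongest upstream region of a regulatory particle gene, is also shown. Stronger regulatory particle regions lay inside rpn-6.1 and rpn-11 and are not shown. Each sequence shown is the whole listed region of the pooled list on ce11, read 5′ to 3′ on the strand of the named gene. It lies at chrIII:3068005-3068199 on the plus strand for ubl-1, chrIV:1709787-1710086 on the minus strand for pbs-1, chrIII:12978861-12979160 on the minus strand for ubq-2 and chrII:11238931-11239230 on the minus strand for rpn-9. None of the 4 regions overlaps an annotated gene other than piRNA genes, which were not considered. Capitals mark every copy, on either strand, of 4 words: the word CCTGCACA, its shorter form CCTGCA, the word ACCGTA and the word ATCTAA. A copy of CCTGCACA is also a copy of the shorter form, and a word on the strand opposite to the gene appears here as its reverse complement.
ubl-1: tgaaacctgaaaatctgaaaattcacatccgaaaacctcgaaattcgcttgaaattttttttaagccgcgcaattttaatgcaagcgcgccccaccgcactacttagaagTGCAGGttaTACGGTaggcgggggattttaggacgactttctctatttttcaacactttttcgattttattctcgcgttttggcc
pbs-1: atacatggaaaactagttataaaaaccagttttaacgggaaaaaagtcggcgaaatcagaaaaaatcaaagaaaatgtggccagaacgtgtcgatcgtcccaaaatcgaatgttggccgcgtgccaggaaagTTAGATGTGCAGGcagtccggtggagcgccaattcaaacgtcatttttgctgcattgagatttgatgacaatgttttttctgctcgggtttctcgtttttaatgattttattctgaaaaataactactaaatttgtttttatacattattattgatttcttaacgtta
ubq-2: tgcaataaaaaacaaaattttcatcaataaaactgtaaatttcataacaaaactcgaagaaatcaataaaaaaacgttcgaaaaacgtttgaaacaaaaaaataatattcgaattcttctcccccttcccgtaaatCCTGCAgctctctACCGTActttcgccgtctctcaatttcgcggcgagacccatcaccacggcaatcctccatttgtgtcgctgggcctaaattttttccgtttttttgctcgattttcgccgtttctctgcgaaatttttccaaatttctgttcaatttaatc
rpn-9: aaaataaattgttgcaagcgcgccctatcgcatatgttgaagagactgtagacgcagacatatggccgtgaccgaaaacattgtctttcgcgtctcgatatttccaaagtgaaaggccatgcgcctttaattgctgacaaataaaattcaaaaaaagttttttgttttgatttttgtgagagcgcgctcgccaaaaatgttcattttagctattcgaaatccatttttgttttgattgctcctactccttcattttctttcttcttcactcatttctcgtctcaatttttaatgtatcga

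In the ubl-1 region the capitals are CCTGCA and ACCGTA, both on the strand opposite to the gene, with 3 bases between them. The centres of these words lay 18.5 and 27.5 bp from the summit, the strongest base of the region. In the ubq-2 region the same words stood on the strand of the gene, with CCTGCA ahead of ACCGTA and 7 bases between them. Their centres lay 10.5 and 2.5 bp from the summit. The order along the strand that carries the words was therefore reversed between these ubiquitin precursor genes. In the pbs-1 region a run of 13 bases held CCTGCACA and ATCTAA, overlapping by 1 base, on the strand opposite to the gene. The centre of CCTGCACA lay 8.5 bp from the summit. The rpn-9 region held no copy of these 4 words, and neither replicate listed a summit within 1 kb of rpn-9. Of the stronger regulatory particle regions not shown, that of rpn-6.1 held ACCGTA, centred 57.5 bp from the summit. That of rpn-11 held none of the words.

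The words CCTGCACA and ACCGTA were picked in an earlier look at the same IDR regions, among them those of ubl-1 and pbs-1. CCTGCA and ATCTAA were added after the data were seen. Their presence at any of these genes, in the IDR set or outside it, is therefore a description. The shares beside the counts below are no test of enrichment. Within 150 bp of the summit on either side, CCTGCA was present at 4 of the 18 highest regions of these genes, against 5.91% of all 29979 nuclear regions of the pooled list. The 4 were ubl-1, pbs-1, ubq-2 and pbs-4, a beta-ring gene whose copy was centred 12.5 bp from the summit. CCTGCA and ACCGTA occurred together at 2 of the 18 regions, against 0.480% of all nuclear regions. ACCGTA was present at 3 of the 18, those of ubl-1, ubq-2 and rpn-6.1 (16.7%, all nuclear regions 7.92%). ATCTAA was present at 3 (16.7%, all nuclear regions 16.5%). Among these 18 regions CCTGCACA was present only at pbs-1, against 0.404% of all nuclear regions. Over the 73 nuclear IDR regions, the share was 37.0% for CCTGCA, 41.1% for ACCGTA and 19.2% for both together. It was 20.5% there for CCTGCACA and 32.9% for ATCTAA. At the annotated promoters, taken as 250 bp before to 50 bp after the gene start, CCTGCA was present in 2 of 36, ubl-1 and pbs-1, against 6.37% of all 19973 nuclear protein-coding promoters. ACCGTA was present in 5 of 36 promoters (all promoters 8.11%), and at 4 of these, pas-4, pas-6, pbs-4 and rpn-5, CCTGCA was not present in the same window. The ATCTAA word was present in 7 of 36 promoters, against 14.9% of all promoters.

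Among the 3 genes grouped as ubiquitin precursors, ubl-1, whose product is ubiquitin-like, held the highest value of the 36 and ubq-2 the third highest. The ubq-1 value was much lower. The gene ubl-1 (WBGene00006725) lies at III 3068310 to 3069210 on the plus strand. Its upstream region had a pooled signal of 232, at rank 18, and was in the IDR set. Its signal was 119 in replicate 1, at rank 21, and 113 in replicate 2, at rank 13, so both replicates placed it high. The summit lay 211 bp upstream of the gene start in the pooled list and in replicate 1, and 209 bp upstream in replicate 2. Genome-wide, 31 of the 9810 protein-coding genes with a pooled-list summit within 1 kb of the start had a value as high. The snoRNA genes H06I04.9 and H06I04.8 lie inside ubl-1, and a second, weaker pooled region inside the gene was also within 1 kb of the start. No other protein-coding start was nearer to the summit; the next, H06I04.3, was 2424 bp away.

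The ubq-2 gene (WBGene00006728) lies at III 12977963 to 12978523 on the minus strand, and its region lay just outside the IDR set. Its pooled signal was 32.5, at rank 107, where the weakest IDR region had 36.1 at rank 92. The replicates differed: the region ranked 79 in replicate 2, with a signal of 20.2, and 2454 in replicate 1, with a signal of 13.8. The summit lay 488 bp upstream of ubq-2 in the pooled list, 494 bp upstream in replicate 2 and 397 bp upstream in replicate 1. It was closer to frg-1, a gene on the other strand whose start lay 151 bp from the summit and 639 bp from the ubq-2 start. The third precursor gene, ubq-1, had a pooled signal of 14.1 at rank 10508, from a region 927 bp upstream. Replicate 1 listed a region there with a signal of 12.3 at rank 4531, and replicate 2 listed none within 1 kb.

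**Figure D1:**
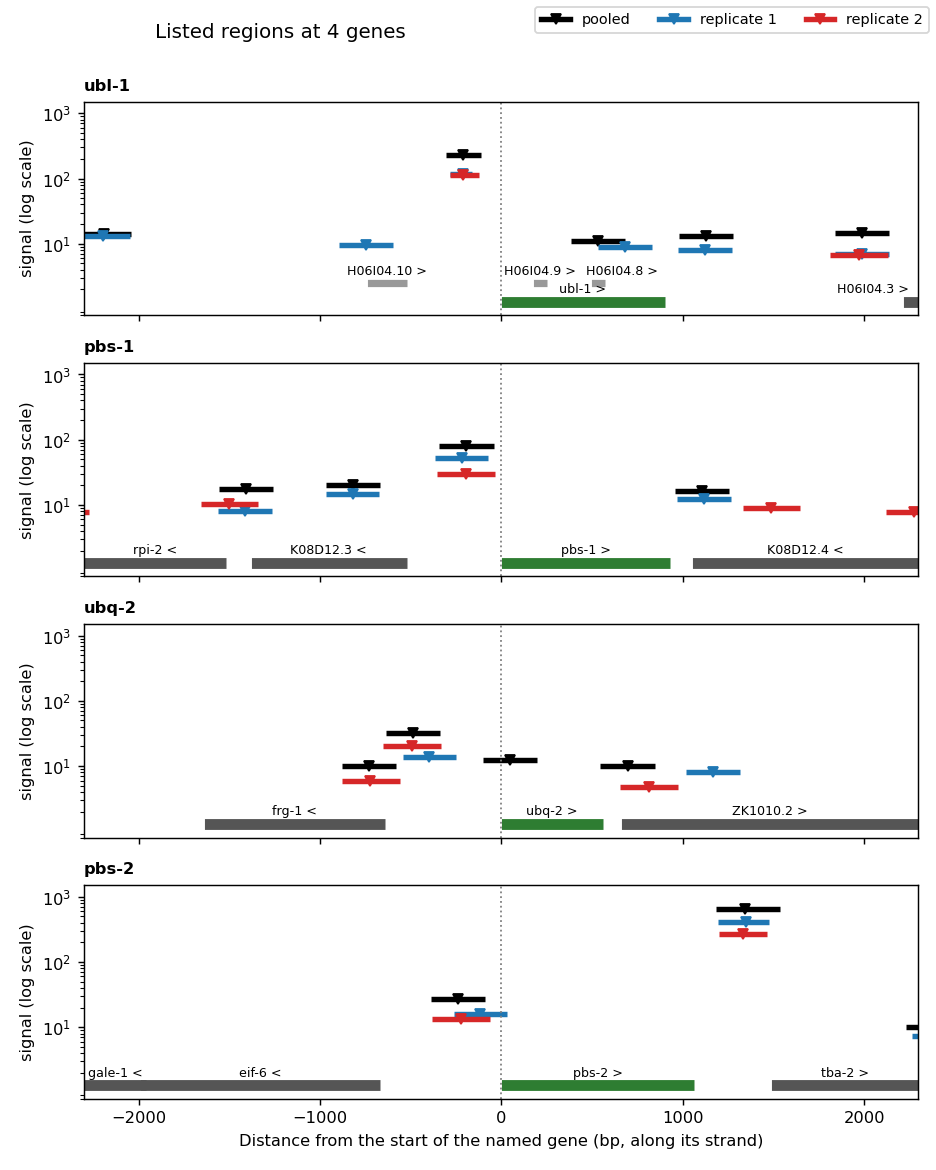
Listed regions within 2300 bp of the starts of ubl-1, pbs-1, ubq-2 and pbs-2. Each horizontal bar is a region of the pooled list (black), replicate 1 (blue) or replicate 2 (red) at the height of its signal value on a log axis, with a triangle at its summit; the x axis is the distance from the gene start in bp along the gene's strand. The signal scale differs between lists. Blocks below are genes, with > for the strand of the named gene and < for the other; grey thin blocks are non-coding RNA genes. In each panel the highest region upstream of the named gene is listed in all 3 lists, at a pooled signal of 232, 78.7, 32.5 and 27.3 from top to bottom, and the tba-2 region with 662 stands at the right of the pbs-2 panel.

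Among the core particle genes the strong regions were at beta-ring genes. The gene pbs-1 (WBGene00003947) lies at IV 1708814 to 1709745 on the minus strand, and its region had a pooled signal of 78.7 at rank 41 and was in the IDR set. It ranked 43 in replicate 1, with a signal of 52.0, and 45 in replicate 2, with a signal of 30.1, so the 3 lists placed it within a few ranks of each other. Its summit lay 192 bp upstream of pbs-1, and 328 bp from the start of K08D12.3 on the other strand. The starts of pbs-1 and K08D12.3 are 520 bp apart, so the region stands upstream of both.

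The gene pbs-2 (WBGene00003948) lies at I 12967216 to 12968280 on the minus strand. Its region was outside the IDR set, with a pooled signal of 27.3 at rank 208. It had a signal of 15.9 at rank 1000 in replicate 1 and of 13.4 at rank 487 in replicate 2. The summit lay 241 bp upstream of pbs-2 and 425 bp from the start of eif-6, a translation factor gene on the other strand, and these starts are 666 bp apart. On the other side of pbs-2 lies tba-2, an alpha-tubulin gene, whose region had the second highest signal of the pooled list. The summit of that region, with a signal of 662, was 1342 bp from the pbs-2 start and thus outside the 1 kb limit.

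The other beta-ring genes were weaker or not listed. For pbs-4 the highest pooled region had a signal of 18.2 at rank 2964, with the summit 829 bp downstream of the start, and for pbs-5 one of 15.0 at rank 8005, 304 bp downstream. Both were listed in replicate 1, at ranks 5581 and 15582, and not in replicate 2; the pbs-5 summit in replicate 1 was at another site, 250 bp upstream. For pbs-3 and pbs-7 only replicate 2 listed a summit, at ranks 18455 and 17632, and pbs-6 had none in any list. In the alpha ring 3 of 7 genes had a pooled-list summit within 1 kb, where 49.1% of all protein-coding genes had one: pas-5 with 12.3, pas-3 with 11.2 and pas-6 with 10.5, all in the weaker part of the list. Both replicates listed pas-5, at ranks 9459 and 12540, replicate 2 alone listed pas-3, at rank 4456, and neither listed pas-6. Replicate 1 alone listed pas-1, at rank 4579, replicate 2 alone listed pas-2, at rank 3842, and pas-4 and pas-7 were in no list.

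None of the 19 regulatory particle genes had a region of the pooled top 1000 within 1 kb, where 2.60% of all protein-coding genes had one. At that share few or none of 19 genes would have one, so this count does not set these genes apart. The highest values were those of rpn-6.1, a lid subunit gene, with a pooled signal of 18.3 at rank 2916, and of rpn-11, which encodes the subunit that removes ubiquitin from substrates, with 17.6 at rank 3625. Both summits lay inside the gene, 586 bp and 557 bp downstream of the start. Replicate 2 listed rpn-6.1, with a signal of 10.9 at rank 1800, and replicate 1 did not. For rpn-11 the highest replicate regions had 9.70 at rank 11636 and 8.98 at rank 4586, from summits 25 bp and 396 bp upstream. Both replicates also listed a weaker region that overlapped the pooled rpn-11 region, at rank 11821 in replicate 1 and 17623 in replicate 2. The rpn-9 value was 17.4 at rank 3879, 162 bp upstream, and neither replicate listed a summit within 1 kb of rpn-9. The ubiquitin receptor gene rpn-13 had 12.3, and its highest replicate regions, at other sites upstream, ranked 17028 and 26515. A weaker region of replicate 1, at rank 23733, overlapped the pooled rpn-13 region, and no region of replicate 2 did. The other receptor gene of this kind, rpn-10, was in no list. The paralog rpn-6.2 had 12.8, from a summit 945 bp upstream that lay 165 bp from the start of zif-1, which encodes a substrate adaptor of a ubiquitin ligase. Replicate 1 alone listed a region for rpn-6.2, with a signal of 14.0 at rank 2217.

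The ATPase genes with a pooled-list summit all had low values. Their pooled signals were 12.8 for rpt-6, 12.2 for rpt-3 and 11.2 for rpt-4, with summits 604, 899 and 955 bp upstream. At rpt-4 the start of C23H3.5 was nearer to the summit, at 409 bp. Replicate 1 ranked its highest rpt-4 region 8080 and replicate 2 ranked its own 29689. For rpt-3 replicate 2 listed a region with a signal of 11.2 at rank 1542 and replicate 1 listed none within 1 kb, and rpt-6 was listed in neither. Only replicate 2 listed a summit for rpt-1 and rpt-5, at ranks 21921 and 15099. Of the remaining regulatory particle genes, rpn-3 was listed in replicate 1 alone, at rank 27634, and rpn-8 in replicate 2 alone, at rank 19370. The lid gene rpn-12 was in both replicate lists, at ranks 14400 and 12470, with summits far apart, and not in the pooled list. The genes rpt-2, rpn-1, rpn-2, rpn-5 and rpn-7 had no summit within 1 kb in any of the lists.

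**Figure D2:**
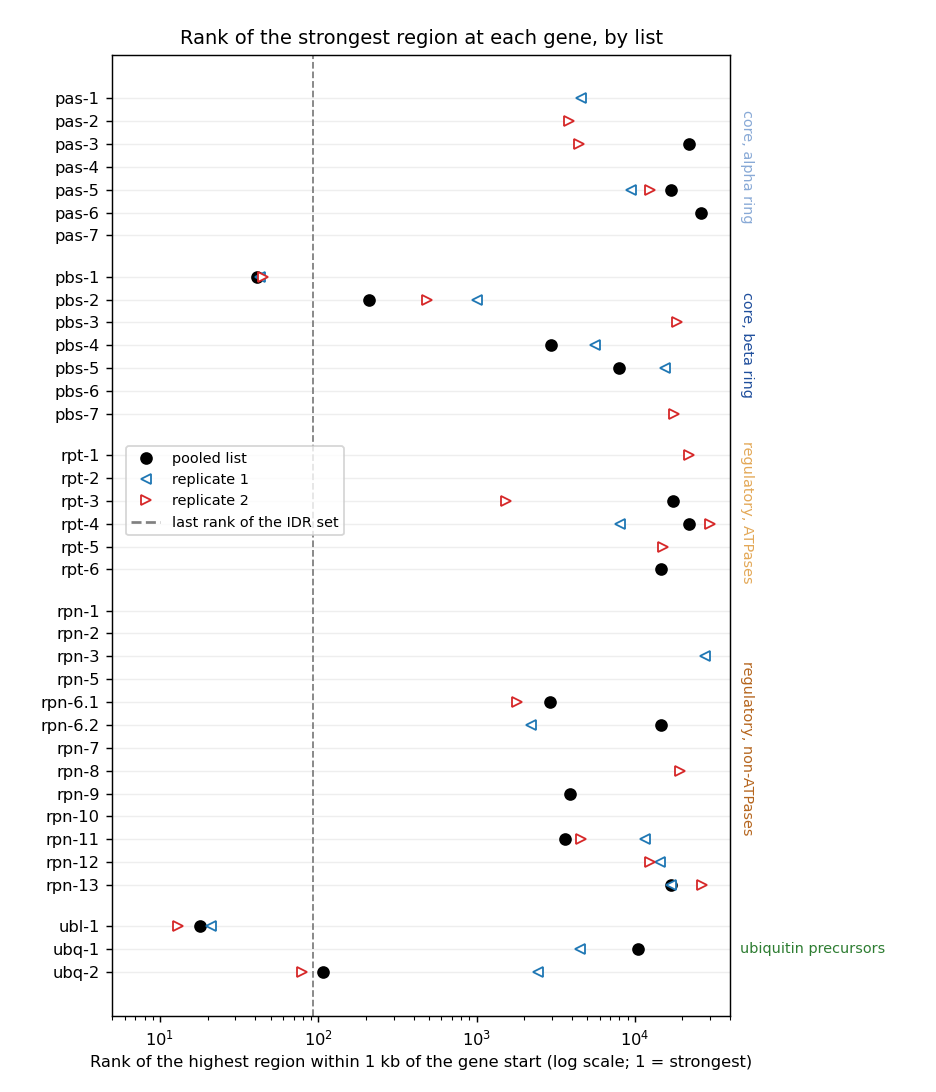
Rank of the highest region within 1 kb of the start of each of the 36 genes, on a log axis where 1 is the strongest, in the pooled list (black circles), replicate 1 (blue) and replicate 2 (red), both as open triangles. A missing mark means no summit within 1 kb in that list, and the dashed line is rank 92, the last of the IDR set. For ubl-1 and pbs-1 all marks lie left of the line, while for ubq-2 replicate 2 lies left of it at 79 and replicate 1 far to the right at 2454.

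Across the 36 genes a listed region was about as common as at other genes, and a strong one was found at few. Any pooled-list summit within 1 kb was present at 18 of 36 genes (50%), against 49.1% of all protein-coding genes. Replicate 1 listed 15 of the 36 (41.7%), against 49.0% of all genes, and replicate 2 listed 18 (50%), against 49.9%. Both replicate lists held 9 of the 36 (25.0%), against 27.2% of all genes. These shares are near the background and are not a result about these genes. A region of the pooled top 1000 was present at 4 of 36 genes (11.1%), against 2.60% of all genes, and an IDR region at 2 of 36 (5.56%), against 0.525%. The 4 genes were ubl-1, pbs-1, ubq-2 and pbs-2, all of them among the top 300 as well. No test was run on these shares, because the genes were chosen with earlier results of the same data known.

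By part of the complex, any pooled-list summit was present at 7 of 14 core particle genes (50%), 8 of 19 regulatory particle genes (42.1%) and 3 of 3 ubiquitin precursor genes. The share over all protein-coding genes was 49.1%, and those of the core and regulatory particle were near it. Within the core particle these were 3 of 7 alpha-ring and 4 of 7 beta-ring genes, and within the regulatory particle 3 of 6 ATPase and 5 of 13 other genes. In the pooled top 1000 the counts were 2 of 14, 0 of 19 and 2 of 3, against 2.60% of all protein-coding genes. The median of the highest pooled signal was 15.0 over the 7 core particle genes with a summit, 12.8 over the 8 regulatory particle genes and 32.5 over the 3 ubiquitin precursor genes. Over all 18 genes it was 14.5, and over the 9810 protein-coding genes with a summit it was 13.4. Thus the median of the regulatory particle was below that of all genes with a summit and that of the core particle above it. The ranges overlapped: core particle values ran from 10.5 to 78.7 and regulatory particle values from 11.2 to 18.3. With 3 precursor genes and values from 14.1 to 232, the order of the parts was not tested.

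**Figure D3:**
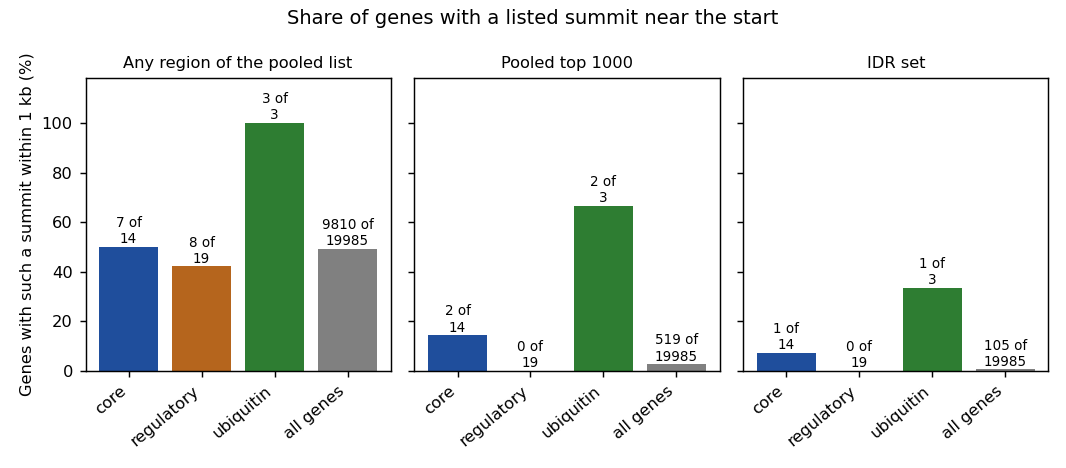
Share of genes, in percent, with a summit within 1 kb of the start in the whole pooled list, its top 1000 and the IDR set, for core particle, regulatory particle and ubiquitin precursor genes and for all protein-coding genes; the counts stand above the bars. For the whole list the core and regulatory bars stand at 50% and 42.1% beside 49.1% of all genes. In the top 1000 and the IDR set the regulatory particle is at 0 of 19, beside 2.60% and 0.525% of all genes. At such shares few or none of 19 genes would have such a region.

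**Figure D4:**
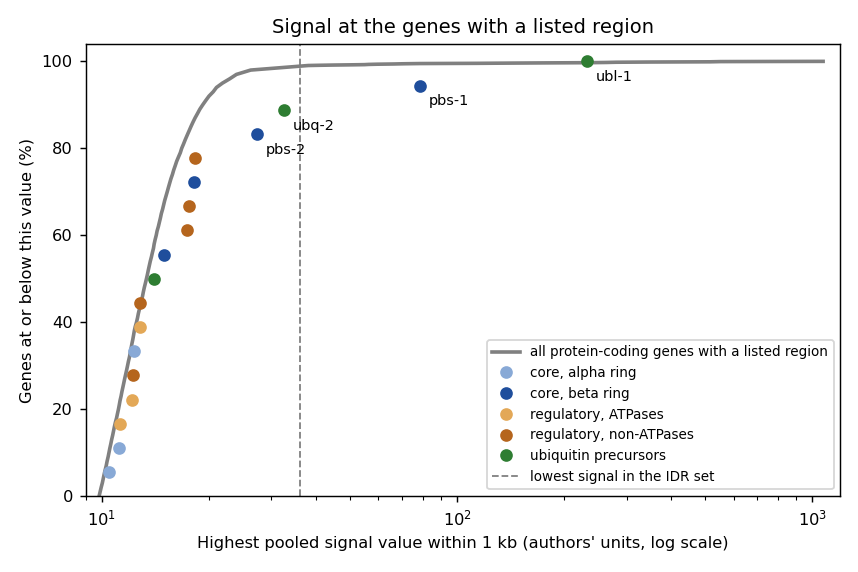
Highest pooled signal value within 1 kb of the start (x, log axis, authors' units) against the percentage of genes at or below it, for the 18 genes with a listed region (points coloured by part) and for all 9810 protein-coding genes with one (grey line). The lower points lie near the grey line, and pbs-2, ubq-2, pbs-1 and ubl-1 are the highest 4, at 27.3, 32.5, 78.7 and 232; the dashed line is the lowest IDR signal, 36.1.

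Of the 9 genes listed in both replicates, 5 had highest regions that overlapped between the replicates (55.6%), against 40.9% of the 5441 protein-coding genes listed in both. The 5 were the leading genes ubl-1, pbs-1, pbs-2 and ubq-2, and pas-5, a weaker one. Over the 9 genes the Spearman rho of the highest signals was 0.767, and over all 5441 genes it was 0.100. Both describe genes within the same pair of libraries. The leading genes had the highest signals of the 9 in both replicates, and the rho over the 9 rests on them. For rpn-11, rpn-12, rpn-13 and rpt-4 the paired values came from regions that did not overlap. The rho therefore does not measure agreement at the weaker genes. A further 6 of the 36 were listed in replicate 1 only (16.7%, all genes 21.8%), 9 in replicate 2 only (25.0%, all genes 22.7%) and 12 in neither replicate (33.3%, all genes 28.3%). Of the 18 highest pooled regions, 6 were overlapped by a region of both replicates and 5 by a region of neither. No share over all genes stands beside these 2 counts, so they are not a result about these genes.

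The arrangement of the genes, which the choice by symbol did not use, set them apart from other genes in count. A divergent protein-coding neighbour, meaning the nearest upstream gene on the other strand with its start facing the member's, lay within 1 kb of 21 of the 36 starts (58.3%), against 17.2% of all protein-coding genes. These were 9 of 14 core particle genes, 11 of 19 regulatory particle genes and 1 of 3 ubiquitin precursor genes, ubq-2. An upstream neighbour on the same strand ended within 500 bp of 8 starts (22.2%), close to the 20.6% of all genes. The median distance to the nearest upstream protein-coding gene was 449 bp, against 936 bp over all genes. A pooled-list summit was present at 7 of the 21 genes with a close divergent neighbour (33.3%), against 49.0% of all genes so arranged. It was present at 5 of the 8 with a close upstream neighbour on the same strand (62.5%, all such genes 49.6%) and at 6 of the remaining 7 (85.7%, all such genes 48.9%). Of the 4 leading genes, pbs-1, ubq-2 and pbs-2 had a close divergent neighbour and ubl-1 did not. Among all genes with a close divergent neighbour 4.25% had a region of the pooled top 1000 within 1 kb. By chromosome, 11 of the 36 genes lie on III (30.6%, all genes 13.2%), 10 on I (27.8%, all genes 14.4%) and 7 on II (19.4%, all genes 17.3%). A further 5 lie on V (13.9%, all genes 25.0%) and 3 on IV (8.33%, all genes 16.4%). On X, which holds 13.7% of all protein-coding genes, lie 0.

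Of the 18 highest pooled regions, 12 had the summit upstream of the start (66.7%, all genes 55.5%) and 6 downstream, with a median distance of 572 bp, against 470 bp over all genes with a summit. At 4 genes another protein-coding start was nearer to the summit than the gene's own. Besides frg-1, zif-1 and C23H3.5, named above, this was use-1, a membrane traffic gene whose start lay 738 bp from the pas-3 summit. No share over all genes stands beside the count of 4, so it is not a result about these genes.

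Other genes of the ubiquitin pathway were taken from lists by symbol. Of 94 such genes, 49 had a pooled-list summit within 1 kb (the same background of 49.1%), 6 had a region of the pooled top 1000 (all protein-coding genes 2.60%) and 1 had an IDR region (all protein-coding genes 0.525%). The IDR region was that at wwp-1, a ubiquitin ligase gene, which had the highest signal of the pooled list, 1072, with the summit 251 bp upstream. The other 5 were ubc-7, a ubiquitin-conjugating enzyme gene, with 27.2, the deubiquitinase genes otub-2 with 26.4 and usp-33 with 22.6, png-1 with 24.1 and cdc-48.1 with 24.1. The png-1 product removes sugar chains from SKN-1A, and cdc-48.1 encodes a segregase that pulls ubiquitylated proteins out of complexes. At cdc-48.1 replicate 1 listed the region at rank 93, and the highest region of replicate 2 was at another site, at rank 26710. The ubc-7 region ranked 4001 in replicate 1 and 141 in replicate 2. For otub-2, whose pooled summit lay 907 bp upstream, the ranks were 599 in replicate 1 and 4728 in replicate 2. For usp-33 they were 4852 and 9048. The png-1 summit lay 3 bp upstream of its start in the pooled list and in replicate 1, at rank 12373 there, and 1 bp upstream in replicate 2, at rank 4820. By list, the top 1000 held 1 of 22 E1 and E2 enzyme genes, 0 of 28 cullin and partner genes, 1 of 8 ligase genes, 2 of 19 deubiquitinase genes, 1 of 8 shuttle and segregase genes, 1 of 5 genes of the SKN-1A route and 0 of 4 other proteasome proteins. The skn-1 gene itself had a pooled signal of 13.0 at rank 14046.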

How the data were processed

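ChIP-seq of tagged ZK546.5 in L4 larvae was analysed from 2 biological replicates. Per the labels and the deposited README text, the authors listed peaks and background for each replicate and for both pooled, as input for IDR, from ChIP alignments with a control alignment, and derived the IDR set from them. The signal of each region is the deposited column 7; its scale, the IDR cut-off, the aligner and the peak caller were not given in the sources used here. Control libraries were not analysed here. Column 9 and the ce10 lists were not used. No sample was left out, and no coordinates were converted.

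Gene starts were the 5′ ends of genes in Ensembl release 115. For each gene the highest signal among summits within 1000 bp was taken, and ranks were within each list. Members and lists were chosen with earlier results of these data known, so counts and medians are given beside those of all protein-coding genes, with no test. All members are named; others are named when their start is nearer to a summit, when they lie inside a member, or, for pathway genes, when in the IDR set or the pooled top 1000. Neighbours in the locus maps that fall outside this rule, and skn-1, were named after values were seen. Other distances, gene starts, assignments and rank limits were tried as alternatives. CCTGCA and ATCTAA were added to the words after the data were seen. Assignment was tested on simulated data. Sequences came from the RefSeq WBcel235 genome with pysam 0.24.0; Python 3.11.15, pandas 2.3.3, scipy 1.17.1 and matplotlib 3.10.9 were used.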

Additional observations from a re-analysis of the deposited data

How the results depend on the processing

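The limits are few samples, an unknown depth and a signal without a stated scale. Of 36 recomputed values, 6 moved and are given here; the other counts stayed within 1.5 times those reported, and the other medians of the highest pooled signal lay between 14.1 and 15.0. Within 500 bp, 8 genes had a pooled-list summit (all genes 29.8%), with a median highest signal of 22.4. Within 2 kb, 15 of 36 genes were in both replicate lists, against 54.0% of all genes. With the pooled top 5000, 8 genes had a region (all genes 10.5%). The median highest signal was 7.90 without replicate 1 and 11.7 without replicate 2, on the scales of the replicate lists left. Moving the limit to 2 kb took the IDR count from 2 to 3, since pbs-2 then took in the tba-2 region. With each region given only to its nearest start, the pooled top 1000 held 3 of the genes, since the ubq-2 region went to frg-1. A gene with no listed summit may have signal below the lowest listed value.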
